A study of Mus musculus with 76 samples.

Results

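Traced *Pomc* neurons differ widely in how much *Pomc* transcript they hold. Here 76 such cells, each sequenced as 1 library, were ordered by that transcript, and the 25 cells with the highest level (the high set) were compared with the 25 cells with the lowest level (the low set), whatever their reporter label or diet. The cells were chosen by their *Pomc* CPM, the *Pomc* counts per 1000000 counts of the same cell. The 26 cells between them are called the middle set. The libraries came from Patch-seq, in which a neuron is recorded with a patch pipette, its content is aspirated for 3 min after the recording, and the RNA in the pipette is sequenced. All cells were taken from the hypothalamus of male Pomc CreERT2;tdTomato;Pomc-eGFP mice. In these mice elements of the *Pomc* promoter drive both CreERT2, a Cre recombinase that works after tamoxifen, and the green reporter eGFP. Tamoxifen, given at the age of 12 weeks, left the red reporter tdTomato in cells whose *Pomc* promoter was active then, while eGFP reports the promoter at the time of recording. Red cells with eGFP carry the label Pomc+ and red cells without eGFP the label Ghost. The mice ate a chow diet (CD) or a high-fat diet (HFD) for 6 months, with 5 mice on each. Of the 38 CD cells 23 were Pomc+ and 15 Ghost, and of the 38 HFD cells 19 carried each label.

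*Pomc* encodes pro-opiomelanocortin, a precursor protein that neurons of the arcuate nucleus cut into several peptides. One of them, α-MSH, acts on melanocortin receptors and lowers food intake. The precursor enters the endoplasmic reticulum, is packed into dense-core granules, and is cut there by prohormone convertases and trimmed by carboxypeptidase E. Many of these neurons also make CART, the peptide encoded by *Cartpt*, and respond to leptin, insulin and other signals of the energy state.

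The *Pomc* levels that chose the sets spanned a wide range. In the high set *Pomc* ran from 6747 to 43974 CPM with a median of 13179, in the middle set from 1709 to 6176 with a median of 3065, and in the low set from 0 to 1329 with a median of 515. The high set held 82.4% of all *Pomc* counts of the 76 cells and the low set 2.43%. These values are the choice itself and not a result. At the upper boundary, the last cells inside the high set were cell 698 (Ghost, HFD, 6768 CPM) and cell 638 (Pomc+, HFD, 6747 CPM), and the first cells outside it were cell 685 (Pomc+, CD, 6176 CPM) and cell 652 (Ghost, HFD, 6157 CPM). At the lower boundary, cell 705 (Ghost, CD, 1773 CPM) and cell 693 (Pomc+, HFD, 1709 CPM from 18 counts) lay outside the low set, and cell 647 (Pomc+, HFD, 1329 CPM) and cell 703 (Pomc+, CD, 1298 CPM) lay inside it. The levels therefore form a gradient, with no wide gap at either boundary.

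Most low cells had *Pomc* counts. A count was found in 22 of the 25 low cells, a number that the choice of the sets fixes. The 3 low cells without a count were cell 656 (Ghost, HFD), cell 700 (Pomc+, CD) and cell 712 (Ghost, CD). A count of 0 allows up to 3 counts, which is 8.99 CPM in cell 656, 82.1 CPM in cell 700 and 739 CPM in cell 712, a library of 4057 counts. Such limits cover counting error only, because the counts are not of separate molecules. Cell 700 was scored as eGFP-positive, so a green cell without a *Pomc* count was among those recorded.

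Both sets held neurons. Of 6 general neuronal markers (*Tubb3*, *Map2*, *Snap25*, *Syt1*, *Elavl4* and *Stmn2*), at least 3 were counted in 25 of 25 high cells and in 19 of 25 low cells, and a cell held a median of 5 in the high set and 4 in the low set. At least 1 of the 6 was counted in 23 low cells. *Agrp*, which encodes the peptide of the neighbouring neurons that raise food intake, was counted in 2 high and 3 low cells, with means of 1.74 and 9.29 CPM. *Npy*, which those neighbours also make, was counted in 4 high and 7 low cells. Marker genes of *Agrp* neurons were thus counted in few cells of either set.

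The sets differed little in reporter label. Ghost cells made up 10 of 25 high cells (40%, exact Clopper-Pearson 95% interval 21.1 to 61.3%), 13 of 26 middle cells (50%) and 11 of 25 low cells (44%, interval 24.4 to 65.1%), against 34 of all 76 (44.7%). Seen from the label, 29.4% of Ghost cells and 35.7% of Pomc+ cells fell into the high set, and 32.4% of Ghost cells and 33.3% of Pomc+ cells into the low set. Cells scored without eGFP were as frequent at the lower end of *Pomc* CPM as cells scored with it, within these intervals. The third highest level of all, 34418 CPM, belonged to cell 687, a Ghost cell on CD. Cells of 1 mouse are not independent, and the intervals take no account of that.

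Diet differed more between the sets. HFD cells made up 10 of 25 high cells (40%, interval 21.1 to 61.3%), 11 of 26 middle cells (42.3%) and 17 of 25 low cells (68%, interval 46.5 to 85.1%), against 38 of all 76. The intervals of the high and low sets overlap. By group, the high set held 11 Pomc+ CD, 4 Ghost CD, 6 Ghost HFD and 4 Pomc+ HFD cells. The low set held 6, 2, 9 and 8 cells of the same groups. Pomc+ cells on CD had the highest median *Pomc*, 6176 CPM, followed by Ghost cells on HFD with 4171, Ghost cells on CD with 2291 and Pomc+ cells on HFD with 2206. The order of the labels was thus opposite on the 2 diets. The 9 highest cells and 14 of the 15 highest were on CD, and the highest HFD cell, 670 (Pomc+), reached 13989 CPM.

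The cell numbers in the labels fall into 8 runs of 1 diet each, whose meaning is not stated. The low set came mainly from 3 of them. Run 637 to 657 (HFD) gave 9 of its 21 cells to the low set and 5 to the high set, run 699 to 712 (CD) gave 6 of 12 to the low set and 1 to the high set, and run 713 to 720 (HFD) gave 6 of 8 to the low set and 2 to the high set. In contrast, run 658 to 669 (CD) gave 8 of 12 cells to the high set and 1 to the low set. The make-up of the sets therefore moved with the run within each diet, and no run compares the diets, because each holds 1 of them. Run 637 to 657 was the 1 run with at least 3 cells of each set.

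High cells also showed more genes. The number of genes with at least 1 count ran from 1632 to 9808 in the high set (median 4923) and from 548 to 5886 in the low set (median 2330). The pair share was 0.798, where the pair share is the share of all pairs of a high and a low cell in which the high cell has the larger value, ties counted equally, so that 0.5 means no order. The middle set, with a median of 2508.5 genes, lay near the low set. Total counts differed less, with 12900 to 1452605 in the high set (median 472232) and 4057 to 1186812 in the low set (median 273385), a pair share of 0.605. With each cell thinned at random to 40000 counts, and shallower cells left out, the medians were 4075.5 genes in 22 high cells and 1938 genes in 21 low cells (pair share 0.855), so the difference remained at equal totals. Over the 76 cells, *Pomc* CPM and genes detected had a Spearman rho of 0.492, and *Pomc* CPM and total counts 0.210. Each point is 1 library, and both measures share its depth.

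The 2 most abundant genes took a larger part of the low libraries. They are among 7 genes counted in every cell, which together took 43.7% of all counts. The 7 took a median of 25.9% of a high cell (8.19 to 61.2%), 50.3% of a middle cell and 66.5% of a low cell (10.6 to 96.0%). The most abundant, ENSMUSG00000119584, has no symbol in the gene name table used and took 35.8% of all counts, with a median of 20.1% of a high cell and 52.1% of a low cell. *Lars2*, which encodes the mitochondrial leucyl-tRNA synthetase, took 6.73% of all counts, with medians of 4.37% and 9.79%. The other 5 were *mt-Rnr2*, the mitochondrial large ribosomal RNA, *Rps27*, a ribosomal protein gene, *Gm15564* and 2 genes without a symbol, each at most 0.511% of all counts. *Rps27* did not differ, with a ratio of mean CPM of 1.01 and a pair share of 0.504. *Pomc* CPM and the summed share of the 7 genes had a rho of -0.634 over 76 cells, and -0.348 with the 7 genes left out of the totals that *Pomc* was divided by. Since CPM divides by all counts of a cell, a larger share on these genes lowers the CPM of every other gene, *Pomc* included. With these 7 genes left out of the totals before the cells were ranked, 19 of the 25 high cells and 20 of the 25 low cells stayed in their set. With the 7 genes and *Pomc* left out and the remaining counts thinned to 14000, the medians were 3189.5 genes in 24 high cells and 1919.5 genes in 20 low cells (pair share 0.808).

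**Figure D1:**
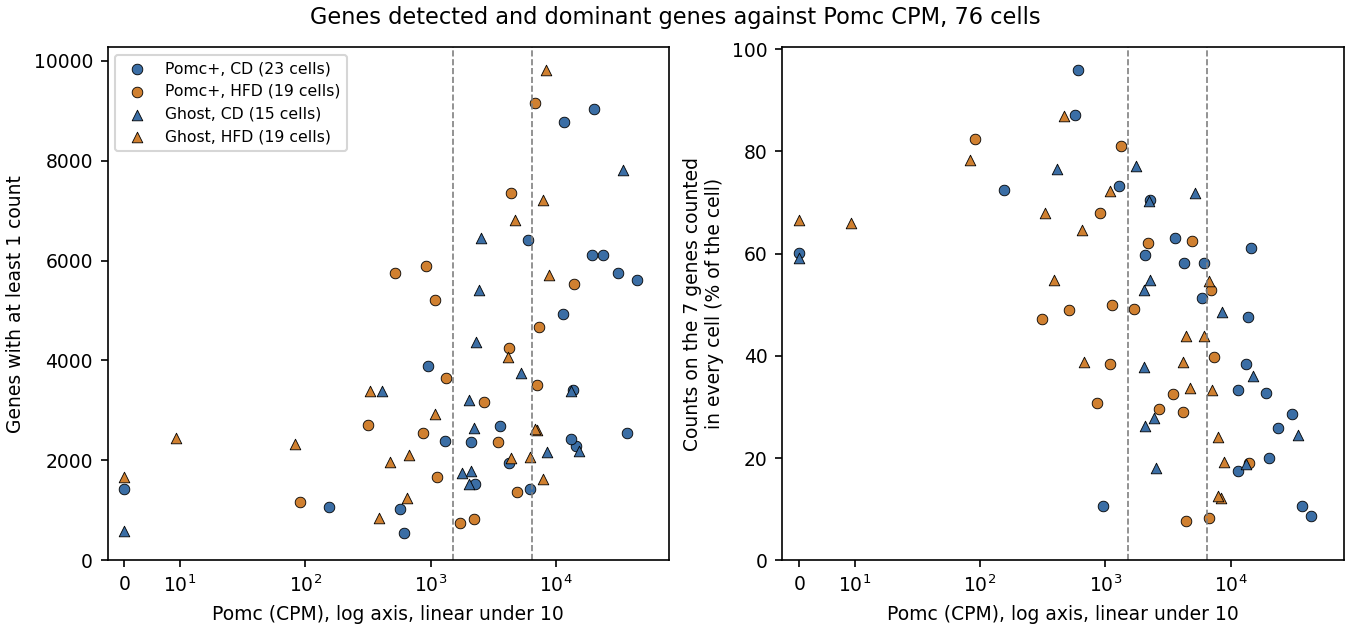
Genes with at least 1 count (left, number) and the share of counts on the 7 genes counted in every cell (right, percent) against *Pomc* CPM (log axis, linear under 10) for the 76 cells, with shape for the label, colour for the diet and dashed lines at the set boundaries. High cells had a median of 4923 genes and 25.9% of counts on the 7 genes, and low cells 2330 genes and 66.5%, with overlap between the sets.

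*Cartpt*, the second peptide gene of these neurons, followed *Pomc*. Its level ran from 673 to 16056 CPM in the high set (median 3486, mean 4924), from 0 to 7368 in the middle set (median 1962, mean 2161) and from 0 to 1771 in the low set (median 445, mean 609.7). It was counted in 25 of 25 high and 23 of 25 low cells. In 24 of the 25 high cells *Cartpt* was above the highest low cell, and the exception was cell 667 (Pomc+, CD) with 673 CPM. The ratio of mean CPM, high over low, was 8.08, between 7.31 and 8.77 with any 1 cell left out, and the pair share was 0.986. Summed over cells, 65078 *Cartpt* counts gave 4875 CPM in the high set and 3975 counts gave 417 CPM in the low set. The sets thus hardly overlapped in *Cartpt* CPM, although the rule did not use it. With the 7 genes counted in every cell left out of the totals the overlap was wide, as 8 of the 25 high cells were above the highest low cell, 15 of the 25 low cells lay in the range of the high set, and the pair share was 0.854. Over all 76 cells the rho of *Pomc* and *Cartpt* was 0.760 in CPM, 0.531 with the 7 genes left out for *Cartpt* alone and 0.685 with them left out for both, and both values of a cell share its library.

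The *Cartpt* difference was present in both labels and both diets. The ratio was 5.49 among Ghost cells (10 high, 11 low), 10.8 among Pomc+ cells (15 and 14), 7.68 on CD (15 and 8) and 7.45 on HFD (10 and 17). Within the 4 groups it was 22.3 for Ghost CD (4 and 2 cells), 3.55 for Ghost HFD (6 and 9), 6.23 for Pomc+ CD (11 and 6) and 23.9 for Pomc+ HFD (4 and 8). Within run 637 to 657 it was 6.57 (5 and 9). The size depended on the scaling, as it was 3.38 with the 7 genes and *Pomc* left out of the totals and 16.8 in the deposited normalized counts. Among cells with 2000 to 5000 genes, where 12 high cells had a median of 2615.5 genes and 11 low cells 2701, *Cartpt* ran from 1807 to 16056 CPM in the high cells and from 0 to 1771 in the low cells, a ratio of 6.52. In these cells the genes detected were matched and *Cartpt* CPM did not overlap, while the share of the 7 genes still differed, at medians of 39.2% and 68%. With the 7 genes left out of the totals these cells did overlap in *Cartpt*. Low cell 703 (Pomc+, CD) then had 6551 CPM and high cell 666 (Pomc+, CD) 2939 CPM. The low cell with the highest *Cartpt*, cell 715 (Ghost, HFD), had 9.27 CPM of *Pomc* and 1771 CPM of *Cartpt*, just under the median of 1799 CPM over the 76 cells.

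**Figure D2:**
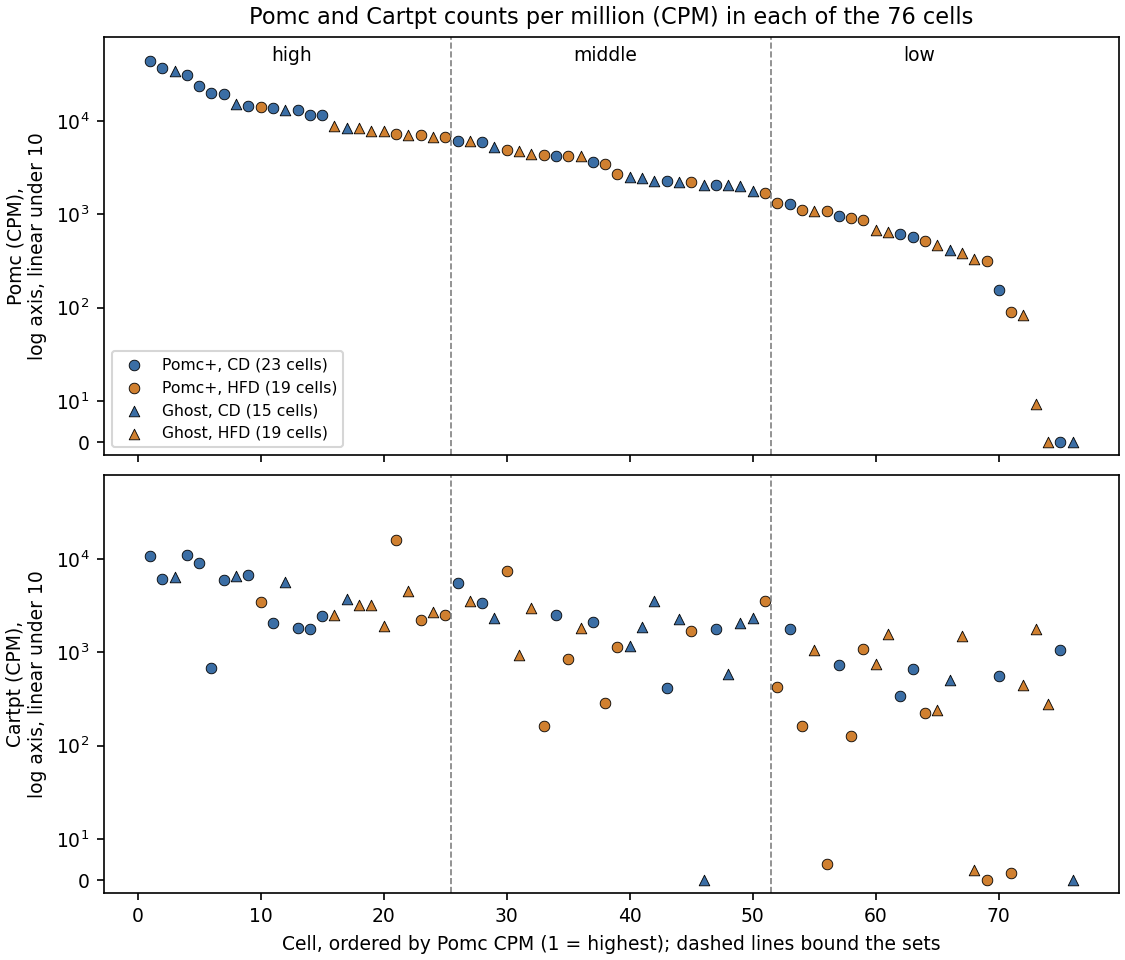
*Pomc* (top) and *Cartpt* (bottom) in CPM, on a log axis that is linear under 10, for each of the 76 cells ordered by *Pomc* CPM, with shape for the label, colour for the diet and dashed lines at the set boundaries. *Cartpt* fell with *Pomc*, from a median of 3486 CPM in the high set to 445 CPM in the low set, and both labels occur throughout.

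The proximal promoters of the 2 peptide genes are shown because their transcripts moved together over these cells. Both are 300 bases from RefSeq on GRCm38.p6, from 250 bases before the start of the gene to 50 after it. That of *Pomc* is at chr12:3954695-3954994 on the plus strand and that of *Cartpt* at chr13:99900634-99900933 on the minus strand. Capitals mark TATAAA, the letters of a TATA box, and TGACGTCA, the letters of a cAMP response element, both searched on both strands. Of 32544 distinct mouse promoters of this length, 13.6% hold TATAAA and 1.80% hold TGACGTCA. A match describes the letters and was not tested as a site.
Pomc: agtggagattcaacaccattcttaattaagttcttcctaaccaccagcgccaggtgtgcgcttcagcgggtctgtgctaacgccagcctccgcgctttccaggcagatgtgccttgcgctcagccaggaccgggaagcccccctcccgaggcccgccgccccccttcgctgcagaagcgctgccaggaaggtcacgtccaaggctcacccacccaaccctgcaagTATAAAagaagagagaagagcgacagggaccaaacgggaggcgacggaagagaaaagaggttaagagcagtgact
Cartpt: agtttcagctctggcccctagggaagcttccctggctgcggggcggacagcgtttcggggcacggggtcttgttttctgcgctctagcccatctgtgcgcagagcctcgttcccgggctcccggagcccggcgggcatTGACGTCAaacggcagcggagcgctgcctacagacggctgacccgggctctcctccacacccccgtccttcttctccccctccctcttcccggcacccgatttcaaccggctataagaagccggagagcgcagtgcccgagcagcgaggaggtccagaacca

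Most transcripts, not *Cartpt* alone, had a higher mean CPM in the high set. The comparison covered the 7373 genes that reached 5 counts in 10 or more of the 76 cells, without *Pomc*. The ratio of mean CPM was above 1 for 6143 of them (83.3%). It was past 2-fold higher in the high set for 4060 genes (55.1%) and past 2-fold lower for 315 (4.27%). With any 1 of the 50 cells left out, 3162 genes (42.9%) stayed past 2-fold higher and 63 (0.854%) past 2-fold lower. The median over all genes was a log2 ratio of 1.16, or 2.23-fold, with quartiles of 0.33 and 2.22. This median is the background against which single genes and lists are read below, as their own log2 ratio minus it. Counts of list members past 2-fold are to be read against the 55.1% higher and 4.27% lower of all genes. A gene that many high cells hold passes the filter on counts more easily, so counts and medians over genes that passed are no support for a list. For the 122 genes with no count in the low set, the ratio is a lower bound against 2.35 CPM, the mean that 3 counts spread over the low cells would give. Where a low mean was above 0 but under 2.35 CPM, also with a cell left out, the ratio is that of the means. Its size is then not firm.

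The split between higher and lower genes depended on the scaling. Among genes past 2-fold, 92.8% were higher in the high set in CPM, 67.8% with the 7 genes and *Pomc* left out of the totals (2358 higher and 1120 lower), and 97.6% in the deposited normalized counts. It was 73.7% when the cells were ranked without the 7 genes, and 68.8% among cells with 2000 to 5000 genes. The median of all genes moved with it, to a log2 ratio of 0.34 without the 7 genes and *Pomc*, 2.01 in the normalized counts and 0.58 among cells with 2000 to 5000 genes. Among Ghost cells on CD, with 4 high and 2 low cells, it was -0.51, on the other side of 0, and in the other 3 groups it ran from 0.82 to 1.67. In the cell by cell view the shift was modest, with a median pair share over all genes of 0.632, and 121 genes above 0.8 against 4 below 0.2. Among cells with 2000 to 5000 genes this median was 0.530, close to no order. Genes detected and the share of the 7 genes moved with this shift, and their part in it was not tested.

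Among genes higher in the high set, *Cartpt* and 9 others separated the cells best. They were taken by pair share from the genes counted in at least 20 cells and past 2-fold with any 1 cell left out, and *Cartpt* had the highest. Next came *Rtn1*, which encodes an endoplasmic reticulum shaping protein of neurons, at 4.02-fold (pair share 0.925, mean 1721 against 428 CPM). *Nsg1* and *Caly*, which encode endosomal proteins of neurons, were 6.95-fold and 6.68-fold higher, each counted in 24 high cells and in 11 and 12 low cells. *Ndfip1*, an adaptor of Nedd4 ubiquitin ligases, was 4.25-fold higher. *Resp18*, a dense-core granule protein of endocrine cells, was 4.65-fold higher and counted in 25 high and 16 low cells. *Pgrmc1*, a heme-binding membrane protein, was 5.61-fold higher. *Gpx3*, a secreted glutathione peroxidase, was 3.79-fold higher. These 8 genes, *Cartpt* included, kept within 1.5 times of their ratio with any 1 cell left out.

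*Npy1r*, which encodes the Y1 receptor for neuropeptide Y, had the largest ratio of the 10. It was counted in 21 of 25 high cells and 4 of 25 low cells, with a mean of 227 against 4.32 CPM, a ratio of 52.5. That ratio was 93.6 without cell 717 (Pomc+, HFD) and 84.9 without cell 694 (Ghost, HFD), both of the low set. *Disp2*, of the Dispatched family, was 11.7-fold higher, and 32.8-fold without cell 720 (Ghost, HFD) of the low set. In log2 minus the background, *Npy1r* stood at 4.56, *Disp2* at 2.40, *Cartpt* at 1.86 and *Nsg1* at 1.64.

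Genes lower in the high set were few, and most rested on a few cells. *Lars2* and *Gm15564*, both counted in every cell, had the lowest pair shares of the named genes, 0.106 and 0.133, with ratios of 0.402 and 0.279. They are among the 7 genes whose summed share differed. *Igfbp5*, an insulin-like growth factor binding protein, was counted in 5 high and 12 low cells at 1.48 against 25.7 CPM, a ratio of 0.0575, which was 0.0152 without cell 665 (Pomc+, CD, high) and 0.0900 without cell 694 (Ghost, HFD, low). *C1qb*, a complement gene of microglia, had a ratio of 0.244, which was 0.149 without cell 714 (Pomc+, HFD, high) and which was above 1 among CD cells alone, at 5.71. *Mef2c*, a transcription factor, had a ratio of 0.161, which was 0.0459 without cell 671 (Ghost, HFD, high) and 0.277 without cell 644 (Pomc+, HFD, low). None of these 3 genes had a median above 0 in either set.

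The remaining 5 of the 10 lowest were of the same kind. *Mrps24*, a mitochondrial ribosomal protein gene, had a ratio of 0.370, and 0.196 without cell 668 (Ghost, CD, high). *Zbtb18*, a zinc finger repressor, had a ratio of 0.228, which was 0.108 without cell 668, 0.150 without cell 711 (Ghost, CD, high) and 0.419 without cell 712 (Ghost, CD, low), and it was 1.45 among cells with 2000 to 5000 genes. *S100a1*, a calcium-binding protein gene, had a ratio of 0.299, and 0.196 without cell 719 (Pomc+, HFD, high). *Hba-a1*, an alpha globin gene of red blood cells, had a ratio of 0.249, and 0.430 without cell 713 (Ghost, HFD, low). *Gm26461* had a ratio of 0.387, and 0.247 without cell 666 (Pomc+, CD, high), but 1.12 among Pomc+ cells and 6.22 among CD cells. Each of these 5 genes was counted in 5 to 13 high cells and in 9 to 16 low cells.

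The genes that process peptide precursors stood above the background as a list, though not all of them. Of 8 of 10 list members that passed the filter, 6 were past 2-fold higher and 0 lower, and their median log2 ratio was 0.70 above that of all genes (0.43 without the 7 genes and *Pomc*, 1.02 in normalized counts, 1.33 among cells with 2000 to 5000 genes). *Pcsk1*, the convertase that makes the first cuts in the precursor, was counted in 15 high cells and 1 low cell, with 82.8 against 2.23 CPM, a ratio of 37.2. The size of that ratio is not firm, as the low mean rests on 6 counts and lies under 2.35 CPM. *Scg5*, which encodes the 7B2 chaperone of the second convertase, had 360 against 32.8 CPM in 21 and 12 cells, a ratio of 11, which was 19.6 without cell 717 (Pomc+, HFD, low). *Cpe*, the carboxypeptidase, had 838 against 369 CPM and *Pcsk1n*, an inhibitor of the first convertase, 923 against 433 CPM. Those last 2 genes were 2.27-fold and 2.13-fold higher, at the background. *Pcsk2*, the second convertase itself, had 60.3 against 37.5 CPM in 9 and 8 cells, a ratio of 1.61 and 0.47 under the background. That ratio was 2.82 without cell 644 (Pomc+, HFD, low). Among cells with 2000 to 5000 genes no high cell had a *Pcsk2* count, so the ratio there was at most 0.0461. *Cpd*, another carboxypeptidase, had a ratio of 0.713 from 6 and 3 cells, which was 5.90 without cell 655 (Ghost, HFD, low). *Scg5*, and *Pcsk1* by a size that is not firm, thus differed more in mean CPM than the second convertase and the enzyme that trims the ends. Cell by cell *Pcsk1* and *Cpe* were alike, with pair shares of 0.782 and 0.776. The middle set had a *Pcsk1* mean of 84.7 CPM, no lower than the high set.

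Granins and other proteins of the dense-core granule stood above the background as well. All 11 passed the filter, 8 were past 2-fold higher and 0 lower, also with any 1 cell left out, and the median was 1.06 above the background (0.93 and 1.29 in the other scalings, 1.32 among cells with 2000 to 5000 genes). The summed level ran from 505 to 9562 CPM in the high set with a median of 3851, and from 0 to 3881 in the low set with a median of 599 (pair share 0.931). *Ptprn*, a granule membrane protein, was 9.15-fold higher (598 against 65.4 CPM, 23 and 11 cells). *Scg2*, a granin cut into peptides itself, was 4.27-fold higher (901 against 211 CPM). *Chgb*, another granin, was 18.5-fold higher (395 against 21.3 CPM, 21 and 6 cells), and 53.4-fold without cell 695 (Ghost, HFD, low). A median high cell held 9 of the 11 members and a median low cell 4.

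Genes of the endoplasmic reticulum, where the precursor is folded, also gave a shift in the ratio of mean CPM. Cell by cell, median pair shares were 0.680 for its chaperone list and 0.684 for its translocation list. Those of all genes and of housekeeping genes were 0.632 and 0.717. Of 17 tested members of the chaperone and stress list, 12 were past 2-fold higher and 0 lower, with a median 0.52 above the background (0.37 and 0.56 in the other scalings, 0.39 among cells with 2000 to 5000 genes). *Hspa5*, the main chaperone BiP, was 4.17-fold higher (530 against 127 CPM) and *Hsp90b1*, its partner GRP94, 4.43-fold (271 against 61.2 CPM). Of 15 tested genes of the translocation machinery, 12 were past 2-fold higher and 0 lower, but the median was at the background, 0.09 from it in CPM, -0.03 without the 7 genes and *Pomc*, 0.54 in normalized counts and 0.18 among cells with 2000 to 5000 genes. *Ssr1*, a subunit of the translocon-associated complex, was 8.93-fold higher (185 against 20.8 CPM, 20 and 9 cells). *Srp14*, of the signal recognition particle, was 2.03-fold higher (319 against 157 CPM) over all cells and lower among HFD cells alone, at 0.833.

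Transcription factors of *Pomc* neurons were at the background as a list in CPM. Of 8 of 12 members tested, 4 were past 2-fold higher and 1 lower, against 55.1% and 4.27% of all genes. The median was -0.04 from the background, -0.01 without the 7 genes and *Pomc*, -0.40 in normalized counts and 0.41 among cells with 2000 to 5000 genes. *Isl1*, a LIM homeodomain factor needed for *Pomc* expression, was 2.42-fold higher (139 against 57.6 CPM, 20 and 9 cells) and 0.988 when the cells were ranked without the 7 genes. *Stat3*, which carries the leptin signal to the nucleus, was 3.65-fold higher (211 against 57.9 CPM). *Prdm12* and *Nkx2-1*, factors of *Pomc* neuron development, were counted in 13 and 10 high cells and in 2 and 3 low cells. *Prdm12* was 19.2-fold higher, and 49.3-fold without cell 717 (Pomc+, HFD, low) and 29.3-fold without cell 720 (Ghost, HFD, low). *Nkx2-1* was 14.3-fold higher, and 8.44-fold without cell 670 (Pomc+, HFD, high) and 31.1-fold without cell 647 (Pomc+, HFD, low), but 0.676 among CD cells. The size for *Nkx2-1* is not firm, as its low mean of 1.81 CPM lies under 2.35 CPM. Both large ratios were nearly gone among cells with 2000 to 5000 genes, at 1.81 and 1.09 with pair shares of 0.5 and 0.492. *Isl1* and *Stat3* were thus counted in most high cells, and *Prdm12* and *Nkx2-1* in fewer.

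Receptors for hormones and metabolic signals varied among themselves. Of 12 of 19 members tested, 7 were past 2-fold higher and 1 lower, against 55.1% and 4.27% of all genes. The median was 0.25 above the background in CPM and 0.21 above it without the 7 genes and *Pomc*. It was -0.49 from the background in normalized counts and -0.75 from it among cells with 2000 to 5000 genes. *Glp1r*, the receptor for the gut hormone GLP-1, had 1096 counts in 9 high cells and 3 counts in 2 low cells, but its ratio was 0.893 when the cells were ranked without the 7 genes. *Nr3c1*, the glucocorticoid receptor, was 2.36-fold higher (19 and 9 cells), 3.68-fold without cell 662 (Pomc+, CD, low) and 0.964 among HFD cells alone. *Adipor1*, a receptor for adiponectin, was 6.78-fold higher, 38-fold without cell 662 and 3.88-fold without cell 668 (Ghost, CD, high). *Thra*, a thyroid hormone receptor and the most abundant of the list, had 147 against 173 CPM, a ratio of 0.851. *Gipr* and *Mc4r* had no count in any cell, and *Mc3r*, *Ghsr* and *Calcr* did not pass the filter.

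Leptin and insulin signalling genes stood above the background in the ratio of mean CPM over all cells. Cell by cell they were near it, with a median pair share of 0.650 against 0.632 for all genes. With any 1 cell left out, 8 members stayed past 2-fold higher and 1 lower. Of 16 of 20 members tested, 11 were past 2-fold higher and 1 lower, with a median 0.70 above the background (0.78 and 0.62 in the other scalings), but -0.40 from it among cells with 2000 to 5000 genes. *Irs4*, the insulin receptor substrate with the highest level here, was counted in 23 high and 13 low cells at 518 against 102 CPM, a ratio of 5.10. *Tsc2*, a brake on mTOR signalling, was counted in 14 high cells and 1 low cell, cell 718 (Pomc+, HFD), and was 7.70-fold higher, or at least 24.6-fold without that cell. *Pik3r1*, a regulatory subunit of PI3 kinase, was 10.6-fold higher (13 and 3 cells), or 23.6-fold without cell 718. The summed level of the list had a median of 1169 CPM in the high set and 471 CPM in the low set.

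Peptides other than *Pomc* and *Cartpt* did not follow as a list. Of 7 of 22 neuropeptide genes tested, *Cartpt* included, 3 were past 2-fold higher and 1 lower, and the median was -1.18 from the background (-1.02 and -1.24 in the other scalings, -0.61 among cells with 2000 to 5000 genes). *Pdyn*, the precursor of dynorphin, was 16.3-fold higher (171 against 10.5 CPM, 14 and 7 cells), and 55-fold without cell 717 (Pomc+, HFD, low). *Gal*, the precursor of galanin, was 2.89-fold higher (9 and 6 cells), and 4.60-fold without cell 703 (Pomc+, CD, low), but 1.20 among cells with 2000 to 5000 genes. *Npy* had 16.7 against 19.5 CPM, a ratio of 0.859 that was 0.319 without cell 698 (Ghost, HFD, high), 1.29 without cell 718 (Pomc+, HFD, low) and 1.53 without cell 695 (Ghost, HFD, low), so single cells set its direction. *Kiss1* and *Crh* had no count in any cell.

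Genes of fast transmitters lay on both sides of the background, with 3 above it and 4 below it, though 6 of these 7 had a ratio above 1. Of 7 of 10 members for GABA and glutamate tested, 3 were past 2-fold higher and 1 lower, and the median was -0.47 from the background in CPM and -0.64 in normalized counts but 0.09 without the 7 genes and *Pomc* and 0.35 among cells with 2000 to 5000 genes. *Gad2* and *Gad1*, the enzymes that make GABA, had 374 against 320 CPM and 293 against 220 CPM, ratios of 1.17 and 1.33. *Gad2* was counted in 22 high and 13 low cells, and its ratio was 2.91 without cell 712 (Ghost, CD, low). *Gad1* was counted in 19 and 12 cells, and its ratio was 2.0 without cell 662 (Pomc+, CD, low). Without the 7 genes and *Pomc* both turned to the low side, with log2 ratios of -0.55 for *Gad2* and -0.28 for *Gad1*. In normalized counts both stayed on the high side, at 1.37 and 0.38. Among cells with 2000 to 5000 genes they went apart, with ratios of 1.90 for *Gad2* and 0.597 for *Gad1*. Among 5 of 8 monoamine genes tested, 3 were past 2-fold higher and 1 lower, with a median of -0.06 from the background in CPM, 0.63 above it without the 7 genes and *Pomc*, 0.94 above it among cells with 2000 to 5000 genes and -0.92 from it in normalized counts. *Slc18a2*, the vesicular monoamine transporter, was counted in 13 high cells and 1 low cell, cell 717, with 102 against 1.38 CPM. Its ratio of 73.8 is not firm in size, as the low mean lies under 2.35 CPM, and was at least 40.3 without that cell. *Ddc*, which makes dopamine and serotonin from their precursors, was 2.15-fold higher, 5.60-fold without cell 662, 0.643 among CD cells and level among cells with 2000 to 5000 genes.

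Receptors for transmitters and peptides stood above the background in the ratio of mean CPM. Cell by cell they were near it, with a median pair share of 0.657 against 0.632 for all genes. Some members, such as *Npy5r* with 11 high and 0 low cells, passed the filter only through the high set. Of 17 of 23 members tested, 13 were past 2-fold higher and 0 lower, with a median 0.97 above the background (0.47 and 1.03 in the other scalings, 0.36 among cells with 2000 to 5000 genes). *Npy1r* led them. *Gria2*, an AMPA receptor subunit and the most abundant of the list, was 6.85-fold higher (263 against 38.4 CPM, 19 and 10 cells). *Gabrb1*, a GABA-A receptor subunit, was 7.18-fold higher (16 and 4 cells), and 75.8-fold without cell 717 (Pomc+, HFD, low). *Gabbr1*, a subunit of the GABA-B receptor, was 2.22-fold higher (183 against 82.6 CPM), at the background. Without the 7 genes and *Pomc* the log2 ratios of *Gria2* and *Gabbr1* fell to 0.19 and 0.13, under the 0.34 of all genes. A median high cell held 9 members and a median low cell 3.

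Ion channel genes lay on both sides of the background over all cells, with 12 above it and 7 below it. Of 19 of 24 members tested, 12 were past 2-fold higher and 1 lower, against 55.1% and 4.27% of all genes. A ratio under 1 was found for 5 of the 19. The median was 0.40 above the background (0.18 and 0.29 in the other scalings, 1.42 among cells with 2000 to 5000 genes). *Scn9a*, a voltage-gated sodium channel and the most abundant of the list, had 175 against 14.6 CPM in 15 and 3 cells, a ratio of 12. Without cell 717 (Pomc+, HFD, low) this ratio was 56.4. The channel genes *Kcnj11* and *Abcc8* of the ATP-sensitive potassium channel did not pass the filter.

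A few low cells held much of what the low set had of these genes. They were singled out after their values were seen. Cell 717 (Pomc+, HFD) had 1089 CPM of *Pomc* and 3.83 CPM of *Cartpt*, with 5209 genes detected and 38.4% of its counts on the 7 genes. Cell 662 (Pomc+, CD) had 956 CPM of *Pomc*, 736 CPM of *Cartpt* and 3897 genes, with 10.6% on the 7 genes, the smallest share in the low set. Cell 718 (Pomc+, HFD) had 515 CPM of *Pomc*, 226 CPM of *Cartpt* and 5758 genes, with 49% on the 7 genes. Cell 718 also had the highest summed level of microglia markers of all cells, 14574 CPM from 12 markers. All 3 were scored as eGFP-positive.

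Immediate early genes, which neurons switch on with activity, were below the background. Of 9 of 14 members tested, 3 were past 2-fold higher and 0 lower, with a median of -0.41 from the background (-0.18 and -0.61 in the other scalings, -1.17 among cells with 2000 to 5000 genes). *Fos* had 476 against 276 CPM, a ratio of 1.72, but 159 against 329 CPM among cells with 2000 to 5000 genes, a ratio of 0.483. *Fosb* was counted in 11 high and 2 low cells at 87.6 against 1.51 CPM, a ratio of 58.2, and 167 without cell 642 (Pomc+, HFD, low). Neither size is firm, as the low mean lies under 2.35 CPM.

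General neuronal genes lay at the background in the ratio of mean CPM but above it cell by cell. Their median pair shares were 0.734 for pan-neuronal and 0.718 for synaptic vesicle genes, against 0.632 for all genes. Of 18 pan-neuronal markers, all tested, 11 were past 2-fold higher and 0 lower, against 55.1% and 4.27% of all genes. Their median was -0.06 from the background (-0.02 and -0.19 in the other scalings, -0.05 among cells with 2000 to 5000 genes). Of 17 genes of synaptic vesicle release, all tested, 10 were past 2-fold higher and 0 lower. Their median was -0.09 from the background (-0.03, -0.42 and 0.13 in the same settings). *Stmn2*, a tubulin-binding protein of neurons, was 4.65-fold higher (668 against 144 CPM, 25 and 15 cells) and *Syp*, a synaptic vesicle protein, 5.03-fold (358 against 71.2 CPM). *Ndrg4* and *Snap25*, the most abundant of the 2 lists, were 2.11-fold and 2.20-fold higher, close to the 2.23-fold of all genes. The summed level of the pan-neuronal markers had a median of 7320 CPM in the high set and 2572 CPM in the low set (pair share 0.862). The medians of the granule and peptide processing lists thus stood above those of general neuronal genes, while cell by cell the lists were closer, with median pair shares of 0.804 for granule, 0.766 for processing and 0.734 for pan-neuronal genes.

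Genes that every cell uses were shifted less than most in the ratio of mean CPM. Cell by cell this held for ribosomal protein genes alone. The median pair share was 0.589 for them, 0.717 for housekeeping and 0.654 for respiratory chain genes, against 0.632 for all genes. Of 18 housekeeping genes, all tested, 6 were past 2-fold higher and 0 lower, with a median of -0.30 from the background (-0.30 and -0.52 in the other scalings, -0.15 among cells with 2000 to 5000 genes). *Eef1a1*, a translation elongation factor, was 1.39-fold higher (1985 against 1432 CPM), with a log2 ratio of -0.34 without the 7 genes and *Pomc*, and *Aldoa*, a glycolytic enzyme, 2.28-fold (1473 against 647 CPM). Of 82 of 93 cytoplasmic ribosomal protein genes tested, 5 were past 2-fold higher and 0 lower, with a median of -0.93 from the background (-0.45 among cells with 2000 to 5000 genes), and 79 of the 82 lay under it. *Rpl3* had 1386 against 698 CPM, a ratio of 1.99, and *Rps13* 203 against 81.2 CPM, a ratio of 2.50. Of 89 of 102 nuclear-encoded genes of the respiratory chain, 29 were past 2-fold higher and 1 lower, with a median of -0.48 from the background (-0.50 and -0.71 in the other scalings, -0.16 among cells with 2000 to 5000 genes). *Atp5b*, of the ATP synthase, was 1.76-fold higher (824 against 469 CPM), and *Cyc1*, of complex III, 2.87-fold, or 5.43-fold without cell 662 (Pomc+, CD, low). Ribosomal protein genes were thus nearly level between the sets in CPM, with a median log2 ratio of 0.23, but -0.69 without the 7 genes and *Pomc* and 1.11 in normalized counts.

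Mitochondrially encoded genes were level in CPM, with a median log2 ratio of 0.06, but -0.89 without the 7 genes and *Pomc* and 0.86 in normalized counts. Of 13 of 37 members tested, 0 were past 2-fold higher and 2 lower, with a median of -1.10 from the background, but 0.14 among cells with 2000 to 5000 genes. *mt-Rnr2* had a mean of 4705 against 9463 CPM, a ratio of 0.497, though it was 1.13 in the deposited normalized counts and 1.05 among cells with 2000 to 5000 genes. *mt-Cytb*, of complex III, had 1483 against 1167 CPM. The median mitochondrial share of a cell was 0.896% in the high set and 0.824% in the low set.

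Nuclear long noncoding RNAs had the highest list median in CPM but were unevenly spread over cells. Of 7 of 10 members tested, 7 were past 2-fold higher, with a median 1.72 above the background in CPM (0.66 and 1.65 in the other scalings) but -0.82 from it among cells with 2000 to 5000 genes. *Snhg11*, the most abundant, had a mean of 3867 against 528 CPM, but was counted in 16 high and 17 low cells with a pair share of 0.541, and its ratio was 0.431 among cells with 2000 to 5000 genes. The summed level ran from 0 to 48069 CPM in the high set with a median of 456 and from 19.6 to 5519 in the low set with a median of 529. *Peg13* was 2.06-fold higher, or 6.84-fold without cell 662 (Pomc+, CD, low), but 0.904 in normalized counts and 0.936 when the cells were ranked without the 7 genes. A few high cells with very much of these RNAs thus set the means, while the medians were close.

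**Figure D3:**
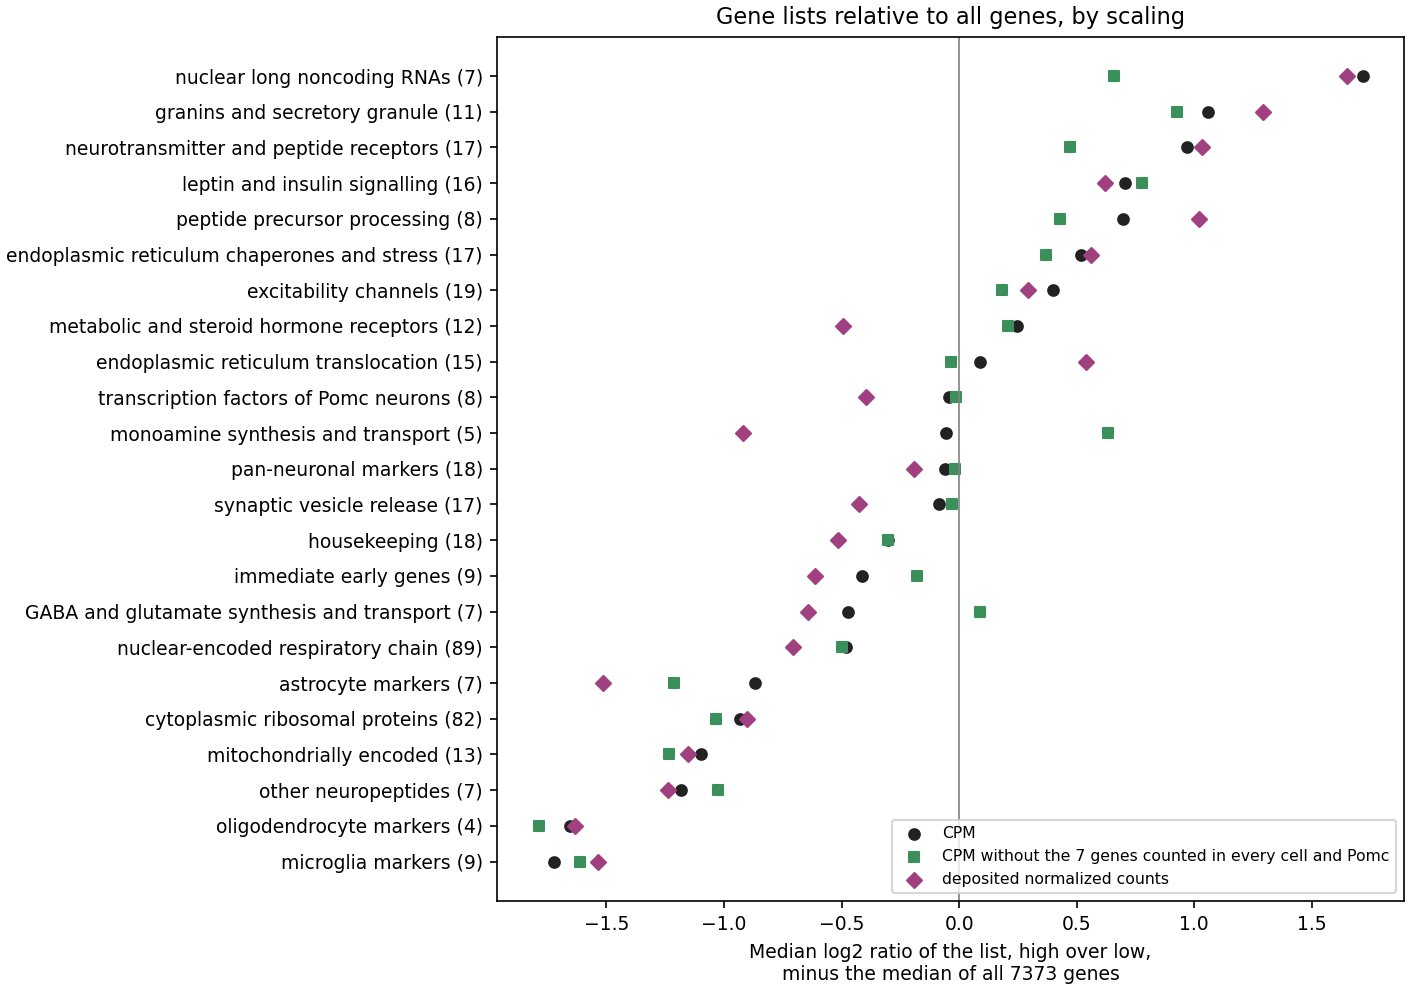
Median log2 ratio of each gene list, high over low set, minus the median of all 7373 genes (horizontal axis, log2), for lists with at least 4 tested members (number in brackets), in CPM, in CPM with *Pomc* and the 7 genes counted in every cell left out, and in the deposited normalized counts. Granule and peptide processing genes lay above 0 in the 3 scalings, and ribosomal, mitochondrially encoded and microglia genes below it, while lists such as GABA and glutamate genes changed side.

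Microglia markers lay lowest in CPM among the lists with at least 4 tested members. Of 9 of 12 members tested, 0 were past 2-fold higher and 3 lower, with a median of -1.72 from the background (-1.61 and -1.54 in the other scalings). The deficit was much smaller among cells with 2000 to 5000 genes, at -0.49 from the background with a median log2 ratio of 0.09, where *C1qb* had a ratio of 0.963 and *Ctss* of 1.06. Their summed level ran from 0 to 10233 CPM in the high set with a median of 47.1 and from 0 to 14574 in the low set with a median of 486 (means 912 and 1968). The pair share was 0.362, and a median high cell held 1 member and a median low cell 3. The ratio of the summed means was 0.464, and 0.266 without cell 657 (Ghost, HFD, high), a library of 12900 counts. *Ctss*, a lysosomal protease and the most abundant of the list, had 225 against 260 CPM, a ratio of 0.866 that was 0.393 without cell 657 and 1.36 without cell 718 (Pomc+, HFD, low). *Aif1*, the marker Iba1, was counted in 4 high and 9 low cells, with a ratio of 0.147 that was 0.0615 without cell 714 (Pomc+, HFD, high) and 0.234 without cell 650 (Pomc+, HFD, low). *C1qa*, a complement gene, had a ratio of 0.424, and 0.20 without cell 657, but it was 1.39 in normalized counts and 1.09 among Ghost cells. Microglia markers moved with diet as well, since 9 of the 10 cells with the highest summed level were on HFD. Of these 10 cells, 4 were in the high set, 4 in the low set and 2 in the middle set. Their part in the differences between the sets was not tested.

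Markers of other glial cells were counted in most cells of both sets. Of 4 of 10 oligodendrocyte markers tested, 0 were past 2-fold higher and 1 lower, with a median of -1.65 from the background (-1.79 and -1.64 in the other scalings, -0.85 among cells with 2000 to 5000 genes) and summed medians of 278 and 179 CPM (means 336 and 460.0). *Mbp*, a myelin protein gene and the most abundant, was counted in 14 cells of each set at 114 against 228 CPM, and *Cnp* in 13 and 7 cells with a ratio of 1.76, or 3.82 without cell 650 (Pomc+, HFD, low). Of 7 of 11 astrocyte markers tested, 0 were past 2-fold higher and 1 lower, with a median of -0.87 from the background (-1.21 and -1.52 in the other scalings) but 1.01 among cells with 2000 to 5000 genes, and summed medians of 503 and 285 CPM. *Aldoc*, the most abundant, had 449 against 502 CPM, but a ratio of 2.25 among cells with 2000 to 5000 genes, and *Slc1a3*, a glutamate transporter, had a ratio of 1.61, which was 0.991 without cell 714 (Pomc+, HFD, high) and 3.26 without cell 718 (Pomc+, HFD, low). The 1 lower gene, *Gfap*, the astrocyte filament gene, had 19.6 against 83.9 CPM in 9 and 12 cells, a ratio of 0.234, which was 0.445 without cell 700 (Pomc+, CD, low) and 0.706 among cells with 2000 to 5000 genes.

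Few precursor, tanycyte and vascular markers passed the filter. Of the 6 markers of oligodendrocyte precursors, *Olig1* alone passed the filter, counted in 2 cells of each set, and the summed level had a median of 0 in both sets. Of 9 tanycyte and ependymal markers, *Vim* alone passed, 2.86-fold higher (147 against 51.3 CPM), the list had a count in 20 high and 12 low cells, and *Rax* had no count in any cell. None of 8 endothelial and mural markers passed, *Rgs5* had no count in any cell, and the median summed level was 0 in both sets.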

How the data were processed

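Patch-seq libraries of 76 cells were used. Per the labels, SMART-Seq cDNA was made from each pipette and turned into Nextera XT libraries, and the submitters' processing notes name cutadapt 2.10, STAR 2.7.5a, DESeq2 and the builds GRCm38 and mm10, without their roles. The deposited raw table holds whole-number counts for 56980 Ensembl identifiers per cell. The deposited normalized table, a signal, holds the same values after division by a factor constant within each cell, which was checked on the files. Of the identifiers 52073 matched a symbol in the gene name table, and genes without one took 36.6% of counts. Some identifiers are newer than GRCm38 annotations, so no gene coordinates were taken from the files. Molecular identifiers are not described.

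Total counts per cell ran from 4057 to 1452605, with a median of 322652. The labels name no mouse, so cells were not replicates and no p-value or standard error was made. Sets, ratios of mean CPM, pair shares and thinning (seed 1) were computed in Python 3.11.15 with numpy 2.4.6, pandas 2.3.3 and scipy 1.17.1, after tests on simulated counts. Named genes are *Pomc*, *Cartpt*, up to 4 members of each of 26 lists, among those that passed the filter, with the highest mean CPM or the pair share furthest from 0.5, and, among genes counted in at least 20 cells and past 2-fold with any cell left out, the 10 highest and 10 lowest by pair share that have a symbol. One of these list members is not reported here, though counts of named genes include it, and *Pcsk2*, *Cpd* and *Gfap* were added after seeing the data. The members and lists were chosen with earlier results of these data known. Alternatives covered scaling, pseudocount, filter, label, diet, set size, ranking, shallow cells and single cells left out. Those on cells with 2000 to 5000 genes, on run 637 to 657 and on thinning without the 7 genes and *Pomc*, as well as the promoter motifs, were chosen after seeing the data. The paper's other experiments were not analysed here.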

Additional observations from a re-analysis of the deposited data

How the results depend on the processing

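With any 1 of the 50 cells left out, 3948 to 4390 genes were past 2-fold higher and 294 to 350 past 2-fold lower in the high set, the median log2 ratio of all genes ran from 1.11 to 1.32 and the *Cartpt* ratio from 7.31 to 8.77. In every setting of this section the median of all genes and the *Cartpt* ratio stayed on the side of the high set. Without the 7 genes counted in every cell and *Pomc*, 2358 genes were higher and 1120 lower, the median was 0.34 and the *Cartpt* ratio 3.38, a setting that by construction removes the share of those genes from the totals. In the deposited normalized counts 138 genes were lower, the median was 2.01, the *Cartpt* ratio was 16.8, and *C1qa* (1.39), *mt-Rnr2* (1.13) and *Peg13* (0.904) reversed. With the difference of mean log2(CPM + 1), 27 genes were lower and the *Cartpt* fold was 20.4, and with log2(CPM + 10), 2470 were higher and 10 lower and it was 14.4. With 1 count in 3 cells as the filter, 7325 genes were higher and 1609 lower of 14117.

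Among Pomc+ cells 518 genes were lower and *Gm26461* reversed (1.12). Among Ghost cells 654 were lower and *C1qa* reversed (1.09). Among CD cells 830 were lower, and *Gm26461* (6.22), *C1qb* (5.71), *Nkx2-1* (0.676) and *Ddc* (0.643) reversed. Among HFD cells 571 were lower, and *Srp14* (0.833) and *Nr3c1* (0.964) reversed. With 38 cells in each set the *Cartpt* ratio was 4.17, as the middle cells then belong to a set. With cells ranked without the 7 genes, 2393 genes were higher and 854 lower, the median was 0.44, and *Glp1r* (0.893), *Isl1* (0.988) and *Peg13* (0.936) reversed. Among cells with 2000 to 5000 genes 1341 were lower, and *Zbtb18* (1.45), *Snhg11* (0.431) and *mt-Rnr2* (1.05) reversed. In run 637 to 657, 691 were lower and the median was 2.07. Splits by label, diet, genes or run leave fewer cells, and beyond that the cause was not tested for any of these changes. The medians of genes detected in the high and low sets were 3189.5 and 1919.5 after thinning without the 7 genes and *Pomc*, and 3808 and 1431 at a minimum of 5 counts in a cell. The 50 named genes past 2-fold higher and the 13 past 2-fold lower all kept their direction without the 7 genes and *Pomc*, on both log2 scales, with 20 and with 38 cells in each set, with cells under 1000 genes left out, with cells ranked by normalized *Pomc* and with any 1 cell left out. The 10 highest and 10 lowest were chosen for staying past 2-fold with any 1 cell left out, so for them that last part was fixed by the choice. The others were taken as already past 2-fold, so this is no separate support.

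These values are limited by the design. The cells of a group share mice that the labels do not name, so no spread between animals is given. The sets were chosen on a readout of the same libraries, and *Pomc* CPM moved with genes detected and with the share of the 7 genes counted in every cell, so less transcript in a cell and less of it recovered cannot be told apart. Libraries range from 4057 to 1452605 counts, and 1 count weighs more in a mean of CPM the shallower its library. No paired analysis was possible because the groups share no replicate numbers.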
